A study of Mus musculus with 12 samples.

Results

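The comparison described here set colonic neoplasms of AOM/DSS mice against the colonic epithelium of untreated mice, by the sample labels alone. It used 6 of the 12 arrays of the series: 3 labelled AOM/DSS and 3 labelled control. All mice were female BALB/c, with an age listed as 5 to 7 weeks, and distal colorectal epithelial tissue was taken on day 100. The AOM/DSS mice received 1 intraperitoneal injection of the colon carcinogen azoxymethane (AOM) at 12.5 mg/kg on day 1, and from day 5 drank dextran sulfate sodium (DSS), which injures the colonic epithelium, for 5 days of each 21-day cycle over 3 cycles. Control mice received neither agent. The remaining 6 arrays came from mice given AOM alone (10 mg/kg weekly, 6 injections) or DSS alone on the same schedule. The neoplasms were clipped with scissors and kept in an RNA storage solution, whereas the epithelium of control, AOM and DSS mice was taken by scraping with a slide and went into Trizol, so tissue, sampling and storage cannot be told apart from treatment. The labels do not state whether replicates were separate mice, so the p-values speak of the spread among these arrays alone. Messenger RNA was measured on 1-colour Agilent arrays of 41174 gene probes. A gene was tested if, in either group, 1 of its probes exceeded background clearly on every array, which left 18679 genes, of which 13331 had a gene symbol.

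The colonic crypt renews itself from stem cells at its base, which depend on Wnt ligands acting through Frizzled receptors and beta-catenin. Their daughters stop dividing as they move up and become absorptive colonocytes, mucus-secreting goblet cells, hormone-secreting enteroendocrine cells or chemosensory tuft cells. In the AOM/DSS model, mutation by the carcinogen is joined to repeated epithelial injury and repair, and the resulting colonic tumours commonly carry active beta-catenin.

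All values below are log2 signals relative to the 75th percentile of the gene probes on the same array, so a value of 0 is that percentile and each unit is a factor of 2. Before scaling, that percentile lay at 1115 to 1185 intensity units on the AOM/DSS arrays and at 394 to 677 on the control arrays, and 62.6% to 66.2% against 52.9% to 55.3% of probes were well above background. Arrays of AOM/DSS correlated with each other at r = 0.967 to 0.978 across genes, control arrays at 0.935 to 0.973, and arrays of different groups at 0.828 to 0.878. Control replicate 3 stood apart. The 18 exocrine pancreas markers averaged 1.77, -0.14 and 5.25 on the control arrays, relative to each gene's mean over the 6 arrays, against -2.15, -2.26 and -2.46 on the AOM/DSS arrays. Control replicates 1 and 2, in turn, were low in connective tissue and vessel RNA: the fibroblast markers averaged -1.19, -1.95 and 1.31 on the control arrays and 0.98, 0.46 and 0.40 on the AOM/DSS arrays, and the endothelial markers -1.59, -1.71 and 0.41 and 1.01, 0.91 and 0.97. AOM/DSS replicate 3 shared a slide with the 3 controls, and AOM/DSS replicates 1 and 2 lay on another slide with AOM arrays. A fit with slide as a block therefore rests on AOM/DSS replicate 3 against the controls for this comparison.

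Differences were estimated with limma over all 12 arrays, as AOM/DSS minus control, and a gene was called where its Benjamini-Hochberg adjusted p was under 0.05. By this test 6557 genes were called, 35.1% of those tested: 3285 were higher (17.6%) and 3272 lower (17.5%) in the neoplasms. The 3 AOM/DSS values did not overlap the 3 control values for 9870 genes, 52.8%. Among called genes, 2562 rose and 2400 fell by at least 1 log2 unit, 470 rose and 393 fell by at least 3, and 193 rose and 189 fell by at least 4. The median difference over all genes was 0.04. It was -0.11 when arrays were scaled to their medians, 0.23 when the percentile was taken over probes above background on every array, 0.10 after quantile normalisation and -0.30 after normexp background correction. The higher calls made up 50.1% of calls as scaled here, 39.5% under median scaling, 61.6% with the percentile over detected probes and 40.6% after normexp. The fit with slide as a block called 2237 genes, 5.12% of genes higher and 6.86% lower, 2181 of them also called here. Without control replicate 1 the count was 4316. Genes whose probes were at background in the lower group are given as a minimum fold: the mean of the higher group against, on each array of the lower group, the higher of the probe's own value and the lowest value of any probe above background. Of 2480 listed genes on the array 2035 passed the filter on low signal, and counts below are over those. Each list count is to be read beside the 17.6% of all genes called higher and 17.5% called lower. All list members have a gene symbol, and of the 13331 tested genes with a symbol 19.6% were called higher and 20% lower. A list near these shares does not stand out. Of the genes called higher, 731 had no control array above background, and a gene that passed the filter only through the group where it was high had to differ. Each gene is given by its brightest probe, and of 1831 called genes with several probes 1179 had every probe called in the same direction. In bulk tissue, fewer cells of a type and less RNA per cell cannot be told apart.

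**Figure D1:**
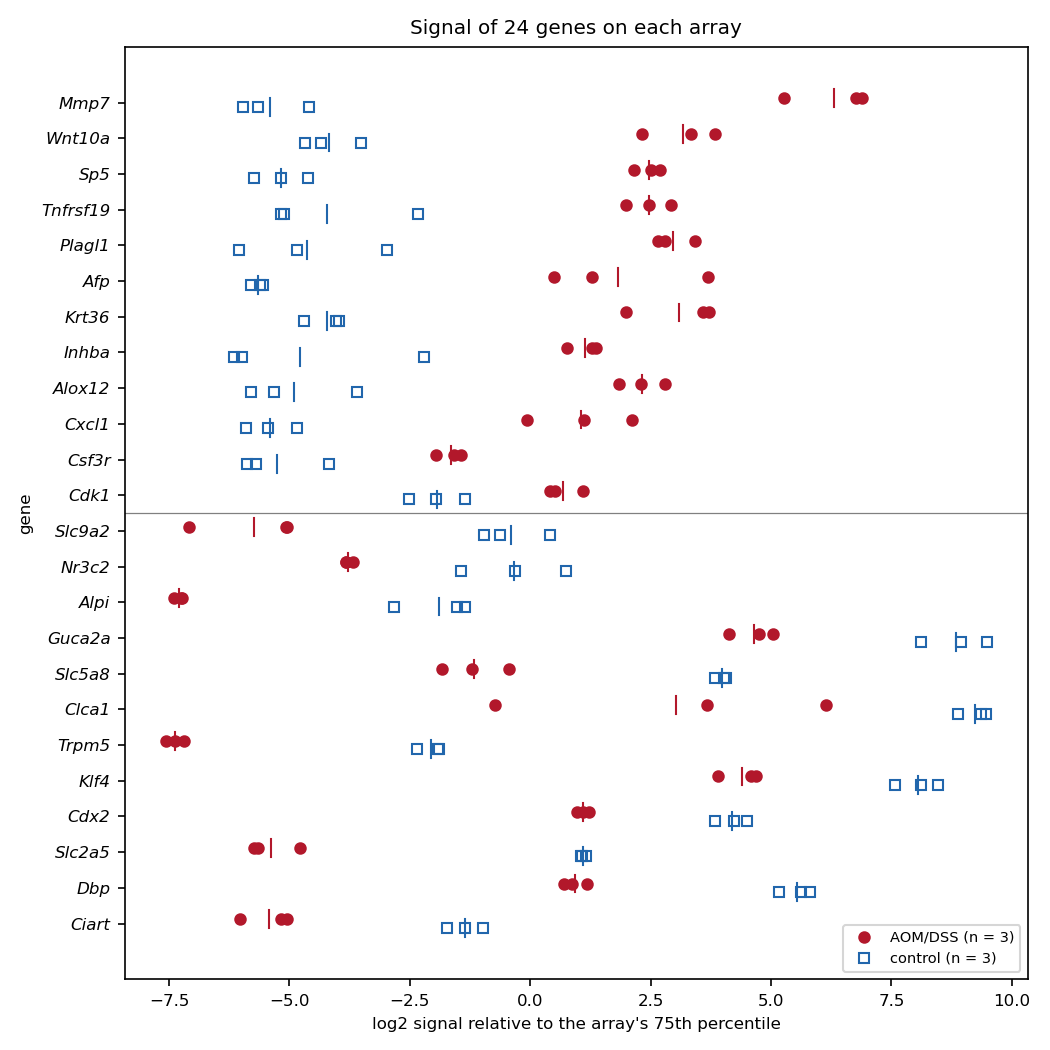
Scaled log2 signal (horizontal axis, 0 is the array's 75th percentile) of 24 genes in each of the 3 AOM/DSS arrays (filled circles) and the 3 control arrays (open squares), with the group means as vertical ticks. The 12 upper genes were called higher and the 12 lower genes called lower in AOM/DSS, and no gene's AOM/DSS values overlap its control values.

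The largest rises joined matrix-degrading and antimicrobial proteins, neutrophil products and secreted Wnt inhibitors. Mmp7, matrilysin, a protease of Paneth cells and intestinal tumours, measured 5.27, 6.77 and 6.88 on the AOM/DSS arrays and -5.65, -4.60 and -5.97 on the control arrays. The groups were far apart, and with no control array above background the rise was at least 1209-fold (log2 difference 11.71 ± 0.84, SE, limma adjusted p = 1.8e-05). Spock2, a matrix proteoglycan, measured 4.55, 3.99 and 3.18 against -3.66, -3.68 and -4.28, a difference of 7.78 ± 0.80, at least 210-fold (adjusted p = 9.7e-05). Plagl1, an imprinted zinc-finger transcription factor, stood at 3.42, 2.80 and 2.64 against -4.85, -6.05 and -2.98 (7.58 ± 0.98, adjusted p = 0.00034). Genes of fetal liver and plasma proteins were among the rises. Afp, alpha-fetoprotein, measured 1.29, 0.49 and 3.69 in the neoplasms and -5.80, -5.62 and -5.56 in the controls, at least 54-fold higher (7.48 ± 0.74, adjusted p = 7.9e-05), and Hp, haptoglobin, 3.99, 3.07 and 4.0 against -5.07, -4.75 and -1.15 (7.34 ± 1.08, adjusted p = 0.0007). Ptn, the growth factor pleiotrophin, went from -4.96, -6.18 and -2.80 in the controls to 3.25, 3.31 and 1.86 (7.46 ± 0.88, adjusted p = 0.0002). No control array reached the lowest neoplasm for any of these genes, which the rule for naming the largest rises required. Prss56, a serine protease, varied among the neoplasms (0.54, 4.39 and 1.0) and lay above the controls on each of them (-6.11, -6.29 and -6.40, 8.24 ± 1.31, at least 60.1-fold, adjusted p = 0.0011). The probe shown was above background on no control array, and the other probe of Prss56 differed by 3.94 without a call. Sbspon rose by 8.18 ± 0.90, at least 68.5-fold (adjusted p = 0.00014) and Erich3 by 7.53 ± 1.29, at least 51.8-fold (adjusted p = 0.0017). Signal was above background for Plagl1, Hp and Ptn on 1 of the 3 control arrays.

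The largest falls included colonocyte enzymes and carriers and digestive enzymes of the pancreas. Hao2, a peroxisomal hydroxyacid oxidase, measured -2.11, -7.20 and -6.86 on the AOM/DSS arrays against 4.16, 3.60 and 4.09 on the control arrays, a difference of -9.34 ± 1.04 (adjusted p = 0.00015). Cyp2c55, a colonic cytochrome P450, measured -1.38, -5.05 and -5.96 against 2.15, 3.75 and 4.05 (-7.45 ± 1.01, adjusted p = 0.00046). Slc13a2, the citrate and succinate carrier of the brush border, measured -7.14, -7.40 and -5.46 against 1.0, 0.43 and -0.99 (-6.81 ± 0.58, at least 37.1-fold, adjusted p = 3.9e-05). The groups did not overlap for any of the 3, which the rule for naming the largest falls required. Nr5a2, a nuclear receptor that drives crypt renewal and local steroid synthesis, fell from 2.32, 2.54 and 1.66 to -3.60, -5.22 and -4.95 (-6.77 ± 0.46, adjusted p = 1.5e-05). Thbs4, a matricellular thrombospondin, was even across the controls (5.16, 5.17 and 4.86) and uneven across the neoplasms (-0.10, -1.83 and -4.04), a difference of -7.05 ± 0.75 (adjusted p = 0.00011). Spink5, an inhibitor of serine proteases, differed by -7.15 ± 0.69, at least 34.7-fold (adjusted p = 7.2e-05). Pancreatic digestive enzymes also ranked among the falls, and here the size rested in part on control replicate 3: Pnlip, pancreatic lipase, measured 0.94, -2.28 and 6.10 on the control arrays against -7.20, -5.47 and -7.03 (-8.15 ± 2.41, at least 101-fold, -5.90 without that array), and Cpa1, carboxypeptidase A, 2.25, -0.64 and 7.09 against -6.87, -5.13 and -3.89 (-8.20 ± 2.15, -6.10 without it). Of the 18 exocrine pancreas markers tested, 11 were called lower and none higher, with a median difference of -4.72 that became -3.11 without control replicate 3. Slide as a block ended the calls of Pnlip (-8.62) and Cpa1 (-6.79). Calls that did not survive leaving out 1 array were: Pnlip without AOM/DSS replicate 1 or 3 or control replicate 1 or 3 (-8.48 to -5.90) and Cpa1 without AOM/DSS replicate 1 (-7.41). Values lay above background for Hao2, Cyp2c55, Nr5a2 and Cpa1 on 1 of the 3 AOM/DSS arrays.

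Several secreted Wnt ligands rose in the neoplasms. Of 11 ligands tested 6 were called higher and none lower, with a median difference of 1.46, which was 0.45 with genes at background set to their bound and -1.14 after normexp correction. For 5 of the 11 no control array was above background. Wnt10a measured 3.33, 3.83 and 2.33 against -4.67, -4.35 and -3.52 (7.34 ± 0.73, adjusted p = 8.4e-05) and Wnt6 2.32, 3.05 and 2.35 against -2.82, -3.16 and -2.68 (5.46 ± 0.68, adjusted p = 0.00028). Wnt3, which in the small intestine Paneth cells supply to stem cells, went from -4.79, -5.48 and -5.39 to -1.54, -0.61 and -1.24, at least 6.98-fold higher (4.09 ± 0.32, adjusted p = 2.8e-05). Wnt5a and Wnt5b, ligands of the beta-catenin-independent branch, rose by 1.50 and 1.44. The minimum fold of Wnt5a was 1.0, so its probes at background give no minimum rise. Wnt4 (1.46), Wnt2 (0.45) and Wnt11 (0.27) were not called. Receptors moved differently: 6 of 14 were called lower and 2 higher, although the median was 0.38, of the opposite sign to most calls, and -0.44 after normexp correction. Fzd5, a Frizzled receptor, fell from 2.18, 1.30 and 0.71 to -2.12, -1.82 and -2.71 (-3.62 ± 0.47, adjusted p = 0.00038). Lgr4, a receptor for R-spondins, which strengthen Wnt signals, measured -0.30, -0.29 and -0.80 against 2.47, 1.87 and 1.38 (-2.37 ± 0.39, adjusted p = 0.0012), and its stem cell relative Lgr5 2.63, 1.66 and 1.49 against -2.21, -0.72 and -1.94, a rise of 3.55 ± 0.91 (adjusted p = 0.012). For both R-spondin receptors the groups did not overlap, in opposite directions. Fzd10 rose by 2.98, and Fzd4 (-1.10), Fzd8 (-1.01) and the co-receptor Lrp6 (-1.54) fell. The fit with slide as a block did not call Wnt5a (1.28), Wnt5b (1.01), Lgr5 (3.11), Fzd10 (3.08), Fzd4 (-1.08) and Fzd8 (-0.72). Among single arrays left out, calls were lost as follows: Wnt5a without any 1 of the 6 arrays (1.41 to 1.61), Wnt5b without AOM/DSS replicate 1 or 2 or control replicate 1 or 2 (1.03 to 1.43) and Lgr5 without control replicate 1 (3.26). The sign turned after normexp correction, without a call, for Wnt5a (-1.38). Probes cleared background for Wnt10a on 1 of the 3 control arrays.

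Among the components that hold or relay beta-catenin, 3 of 19 were called higher and 4 lower. Those 15.8% and 21.1% lay near the 17.6% and 17.5% of all genes. Beta-catenin itself, Ctnnb1, was not called (0.43, values 4.24, 4.41 and 4.57 against 4.13, 3.88 and 3.91), nor was Apc, its scaffold for degradation (-0.11). Its DNA-binding partners changed in opposite directions. Lef1 rose from -1.29, -3.65 and -0.78 to 1.75, 1.88 and 0.83 (3.40 ± 0.67, adjusted p = 0.0033), while Tcf7l2, the main partner in normal intestine, fell from 4.76, 3.96 and 3.30 to 1.59, 2.05 and 1.18 (-2.40 ± 0.39, adjusted p = 0.0012). Inhibitors of the pathway, several of which Wnt signalling itself induces, had the highest share of rises among the 4 roles: 11 of 14 were called higher and 1 lower, with a median of 2.85, or 2.46 with genes at background set to their bound and 1.55 after normexp. Dkk3, of the Dickkopf family, measured 1.63, 1.79 and 1.60 against -3.01, -2.92 and 0.28 (3.56 ± 0.72, adjusted p = 0.0039), and Apcdd1, a membrane inhibitor, -2.85, -2.25 and -2.89 against -5.96, -6.15 and -6.24 (3.45 ± 0.55, at least 2.41-fold, adjusted p = 0.0011). The ubiquitin ligases Znrf3 and Rnf43, which remove Frizzled receptors from the membrane, rose by 2.74 and 2.19, and Kremen2, a Dickkopf co-receptor, by 1.27. Sfrp1, a decoy for Wnt ligands, was the member that fell (0.61, -1.16 and -0.35 against 0.97, 0.64 and 1.54, -1.35 ± 0.46, adjusted p = 0.042). On the log2 scale the mean over all 14 inhibitors was 1.85, 1.80 and 1.69 in the neoplasms and -1.95, -2.04 and -1.36 in the controls, so the arrays of each group lay close together. Under the slide block the calls lost were Lef1 (2.74), Dkk3 (3.49), Znrf3 (2.40), Rnf43 (1.79), Kremen2 (1.54) and Sfrp1 (-1.40). Dropping 1 array cost the following calls: Kremen2 without AOM/DSS replicate 2 or 3 or control replicate 1 or 2 (1.02 to 1.28) and Sfrp1 without AOM/DSS replicate 2 or 3 or control replicate 1, 2 or 3 (-1.55 to -0.92). After normexp correction Apcdd1 (-0.31) and Kremen2 (-0.01) had the opposite sign, without a call. Signal was above background for Lef1 on 2 of the 3 control arrays.

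**Figure D2:**
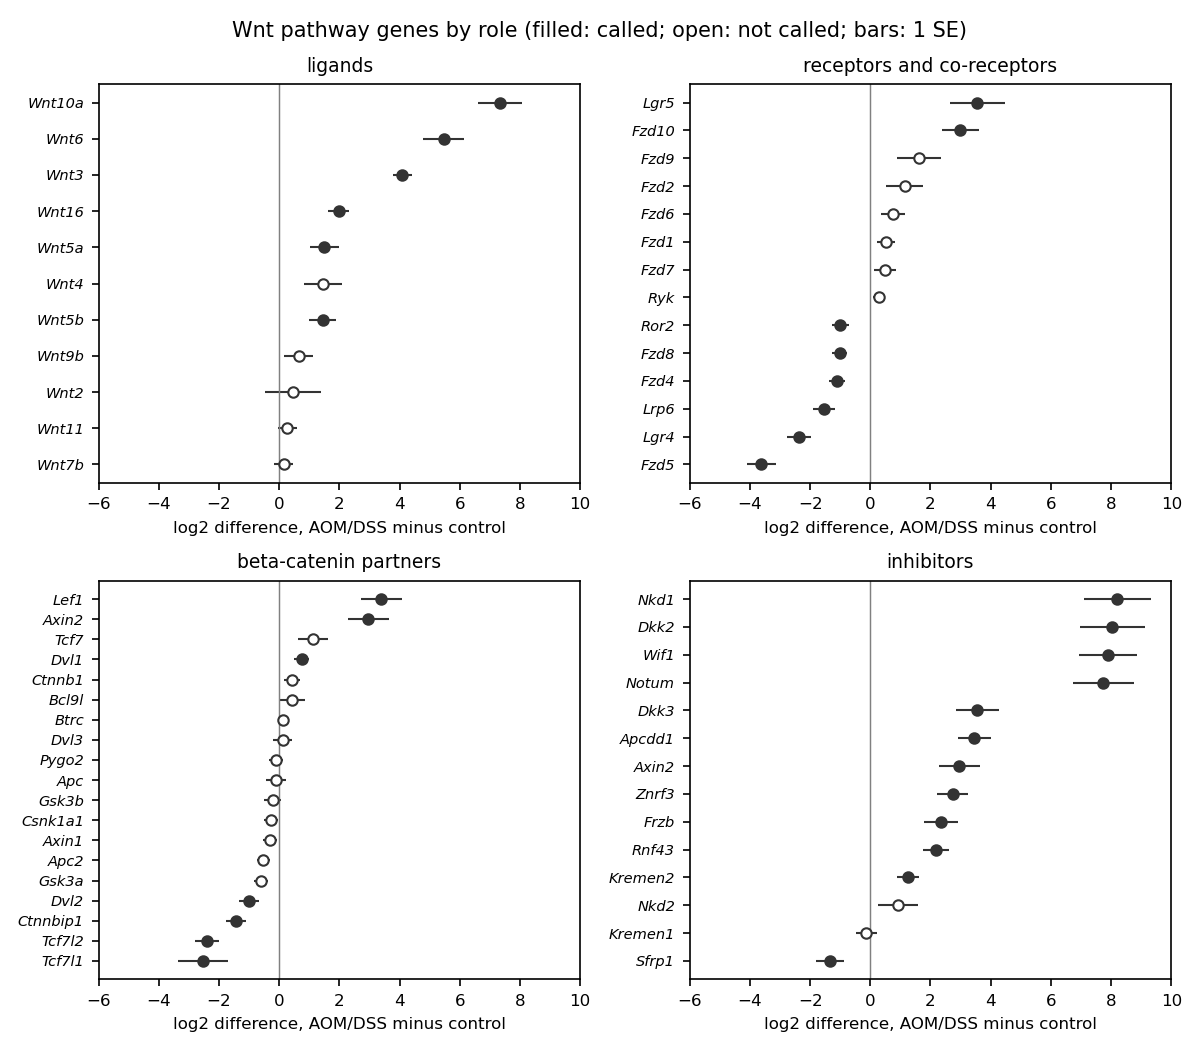
Log2 difference, AOM/DSS minus control, of each tested Wnt ligand, receptor, beta-catenin partner and inhibitor (points, with bars of 1 SE), sorted within each role and filled where called. 11 of 14 inhibitors and 6 of 11 ligands lie to the right of 0 as filled points, and 6 of 14 receptors to the left.

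Of 18 transcription factors and drivers known as Wnt targets, 11 were called higher and 1 lower (median 1.57). Sp5, a direct target that acts as a repressor, measured 2.16, 2.69 and 2.52 against -5.75, -4.62 and -5.17, at least 83.9-fold higher (7.64 ± 0.95, adjusted p = 0.00027). Prox1, a homeobox factor of colon tumours, rose from -5.85, -5.83 and -5.82 to -0.50, -0.59 and -1.66 (4.92 ± 0.73, at least 8.11-fold, adjusted p = 0.00072). Tbx3, a T-box repressor, rose by 4.61 and Mycn by 2.44, whereas Myc, the driver of growth, differed by 1.57 ± 0.37 (values 2.69, 2.30 and 2.03 against 0.31, 1.22 and 0.77, adjusted p = 0.0084) and Sox9, a crypt factor, was not called (0.65). Genes of the crypt stem cell showed 12 of 18 higher and 2 lower. The lists share members, so their counts are not separate. Lgr5, Ascl2, Rnf43 and Znrf3 among these rises are also counted in Wnt lists. Axin2 is counted as a beta-catenin partner and an inhibitor, and Lef1 as a partner and a target. Tnfrsf19, also called Troy, measured 2.47, 2.92 and 2.0 against -5.18, -5.12 and -2.33 (6.67 ± 0.79, adjusted p = 0.00022), and Smoc2, a matrix protein of the stem cell zone, rose by 1.66. Against that direction, Msi1, an RNA-binding protein, measured 0.41, 0.25 and 1.34 against 4.93, 4.42 and 3.94 (-3.76 ± 0.44, adjusted p = 0.00019). Paneth cells, which secrete antimicrobial peptides at the crypt base of the small intestine, are rare in normal mouse colon. Of their 11 genes 8 were called higher and 1 lower. Lyz1, a lysozyme, went from 3.83, 1.85 and 4.88 to 6.16, 6.88 and 6.20 (2.89 ± 0.73, adjusted p = 0.012), and the angiogenin Ang4 fell from 6.44, 8.33 and 7.04 to 4.31, 5.23 and 5.32 (-2.32 ± 0.63, adjusted p = 0.017). The defensins Defa20 (5.50 ± 1.65), Defa22 (5.35 ± 1.77) and Defa3 (3.43 ± 0.72) also rose, but their probes are near-identical and signal may be shared between them. For Defa22 the values of the groups overlapped. The 11 Paneth cell genes averaged -1.98, -0.38 and -2.10 on the control arrays and 1.14, 1.51 and 1.81 on the AOM/DSS arrays. Genes of fetal and injury-repair epithelium gave 10 of 19 higher and none lower. Adding slide to the fit removed the calls of Tbx3 (4.25), Mycn (2.59), Myc (1.26), Smoc2 (1.13), Lyz1 (2.68) and Ang4 (-1.95). With 1 array removed, the calls lost were: Mycn without AOM/DSS replicate 2 or 3 (2.26 to 2.37), Smoc2 without AOM/DSS replicate 1 or 2 or control replicate 1 (1.37 to 1.68) and Ang4 without AOM/DSS replicate 1 or control replicate 2 (-1.99 to -1.79). Values lay above background for Tnfrsf19 on 1 of the 3 control arrays, and Mycn on 2 of the 3 control arrays.

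Cell division genes rose almost as a whole. Of 28 genes of mitosis 27 were called higher and 1 lower, with a median difference of 2.08 (1.24 after normexp), beside 17.6% of all genes called higher and a median of 0.04. Cdk1, the kinase that starts mitosis, measured 0.42, 0.51 and 1.10 against -2.52, -1.95 and -1.36 (2.62 ± 0.42, adjusted p = 0.0012). Ccnb2, one of its cyclins, measured 2.80, 3.36 and 3.89 against 0.91, 1.71 and 2.11 (1.78 ± 0.40, adjusted p = 0.007). Both the activator of the anaphase-promoting ubiquitin ligase, Cdc20 (2.67, 3.12 and 3.39 against 0.82, 1.41 and 1.66, 1.76 ± 0.37, adjusted p = 0.005), and its ubiquitin-conjugating enzyme, Ube2c (2.08, 2.53 and 2.96 against -0.41, 0.44 and 0.96, 2.19 ± 0.42, adjusted p = 0.0031), rose. Each of the 4 genes was lower on every control array than on any AOM/DSS array. Over the whole list the neoplasms averaged 0.59, 1.01 and 1.41 and the controls -1.68, -0.86 and -0.47, with control replicate 3 nearest to the neoplasms. The gene called lower was Bub1, a spindle checkpoint kinase, whose probes were called in opposite directions.

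The promoters of these mitotic genes are shown because 27 of 28 members moved together. Searches of other lists are given after the clock genes. RefSeq promoters of the GRCm38.p6 build were matched by symbol for 22 of the 28 genes, and the 250 bases before each start were searched on both strands for CCAAT, the box bound by the trimeric factor NF-Y, and for TTTGAA, the cell cycle homology region (CHR), the element read by the MuvB complex. CCAAT was found in 19 of 22 mitotic promoters, 86.4%, and in 34.7% of the 13533 promoters of all genes tested. TTTGAA was found in 9 of 22, 40.9%, and in 11.1% of all. The motifs share no position in the promoters printed here, though 2 CCAAT matches on opposite strands overlap in Ube2c, and a match is a description of the sequence, not evidence of binding in these samples. Below are 4 of these promoters from 5′ to 3′, on the strand of the gene and ending at the base before the start, with both motifs in capitals: Cdk1 at chr10:69352913-69353162 (minus strand), Ccnb2 at chr9:70421555-70421804 (minus), Cdc20 at chr4:118437344-118437593 (minus) and Ube2c at chr2:164769679-164769928 (plus).
Cdk1: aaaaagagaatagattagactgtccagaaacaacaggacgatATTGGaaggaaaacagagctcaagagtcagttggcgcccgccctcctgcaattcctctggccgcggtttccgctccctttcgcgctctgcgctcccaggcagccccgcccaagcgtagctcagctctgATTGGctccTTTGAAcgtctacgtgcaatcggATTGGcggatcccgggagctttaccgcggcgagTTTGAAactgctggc
Ccnb2: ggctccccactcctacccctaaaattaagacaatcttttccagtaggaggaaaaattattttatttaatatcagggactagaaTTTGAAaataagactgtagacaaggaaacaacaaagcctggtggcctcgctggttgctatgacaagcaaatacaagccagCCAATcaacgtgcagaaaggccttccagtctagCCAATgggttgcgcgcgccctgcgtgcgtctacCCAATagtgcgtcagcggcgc
Cdc20: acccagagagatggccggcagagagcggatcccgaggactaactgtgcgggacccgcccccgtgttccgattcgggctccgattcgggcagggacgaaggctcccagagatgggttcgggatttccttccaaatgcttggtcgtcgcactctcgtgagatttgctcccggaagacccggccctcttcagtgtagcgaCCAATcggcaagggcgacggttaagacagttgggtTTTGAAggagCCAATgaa
Ube2c: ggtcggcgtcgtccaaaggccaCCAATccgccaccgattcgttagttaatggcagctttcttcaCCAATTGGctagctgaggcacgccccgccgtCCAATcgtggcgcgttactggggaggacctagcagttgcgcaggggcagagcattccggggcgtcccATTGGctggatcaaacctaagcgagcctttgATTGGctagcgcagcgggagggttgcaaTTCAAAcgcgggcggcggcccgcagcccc
All 4 sequences hold both motifs, and all 4 genes were called higher.

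Other growth machinery rose less uniformly. Of 32 genes of DNA replication and licensing 16 were called higher and 1 lower (median 1.03, and 0.68 without control replicate 1). Brakes on the cycle mostly fell: 8 of 13 inhibitors and antiproliferative genes were called lower and 2 higher. Cdkn2b, an inhibitor of the CDK4 and CDK6 kinases, measured 2.36, 2.06 and 1.89 against 4.61, 3.74 and 3.63 (-1.89 ± 0.30, adjusted p = 0.0011), and Cdkn1a, the p53 target p21, 3.36, 3.21 and 2.54 against 5.47, 4.29 and 3.52 (-1.39 ± 0.43, adjusted p = 0.028). In the other direction, Cdkn2a, which encodes p16 and p19ARF, went from -5.90, -6.05 and -6.21 to -1.74, -2.81 and -2.74 (3.63 ± 0.87, at least 2.84-fold, adjusted p = 0.0088). Ribosome assembly factors were called higher in 18 of 29 and lower in none, among them Gnl3 (2.57) and Wdr12 (1.61). The ribosomal proteins themselves were called higher in 1 of 80 and lower in 14, which at 17.5% equals the share of all genes called lower. Their median was -0.29, but 0.43 after quantile normalisation and 0.36 after normexp. Nucleotide and one-carbon enzymes gave 10 of 27 higher and none lower, including Ctps, the synthase of CTP (2.42), and Psat1 of serine synthesis (2.38). Proteasome subunits gave 14 of 42 higher, and the 1 that fell was the immunoproteasome subunit Psmb10 (-1.08). Repair genes for alkylated and mismatched bases gave 12 of 27 higher and none lower, among them Exo1 (1.84) and Apex1 (1.94). p53 target genes did not move one way, with 5 of 24 higher, such as Phlda3 (3.77), 4 lower, such as Perp (-1.37), and Mdm2 not called (0.38). Their shares, 20.8% higher and 16.7% lower, lay near the 17.6% and 17.5% of all genes. With slide as a block, Cdkn1a (-1.89), Cdkn2a (3.31), Wdr12 (1.66), Psmb10 (-0.61), Exo1 (2.31), Phlda3 (3.45) and Perp (-1.18) missed the threshold. Calls that did not survive leaving out 1 array were: Cdkn1a without AOM/DSS replicate 2 or 3 or control replicate 1 or 2 (-1.48 to -0.87) and Psmb10 without AOM/DSS replicate 1 or 2 or control replicate 1 or 2 (-1.14 to -0.78). The sign turned after normexp correction, without a call, for Cdkn2a (-0.22).

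Genes of cell death changed in both directions. Of 34 tested 8 were called higher and 10 lower. Those 23.5% and 29.4% stand beside 17.6% and 17.5% of all genes. The gasdermins, pore-forming proteins of the gut lining and skin, went both ways: Gsdma measured 2.84, 3.33 and 3.38 against 0.44, -0.91 and -0.94 (3.65 ± 0.69, adjusted p = 0.0027), and Gsdmc 1.65, 0.22 and -0.61 against 4.18, 5.05 and 4.59 (-4.19 ± 0.59, adjusted p = 0.00059). Gsdmc2 (-3.87) and Gsdmc3 (-4.17), close copies of Gsdmc, also fell, and these 3 copies may share signal. Bcl2l15, a Bcl-2 family member of the gut, rose by 4.44 ± 1.09 (adjusted p = 0.0099) and spread widely among the neoplasms (-0.67, 3.10 and 4.70 against -1.37, -2.92 and -1.90).

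Most genes of ion transport across the colonocyte were lower. Of 27 genes of chloride, sodium and potassium transport 19 were called lower and none higher, with a median of -1.76, beside 17.5% of all genes called lower. Slc9a2, a sodium-proton exchanger, measured -5.06, -5.05 and -7.09 against 0.40, -0.62 and -0.95 (-5.35 ± 0.58, adjusted p = 0.00013). Slc26a2, a sulfate carrier, measured 1.37, 0.27 and 0.21 against 4.0, 3.87 and 3.74 (-3.26 ± 0.30, adjusted p = 6.2e-05). In the aldosterone-dependent route of sodium uptake, Nr3c2, the mineralocorticoid receptor, fell from 0.75, -0.33 and -1.44 to -3.83, -3.82 and -3.67 (-3.44 ± 0.60, adjusted p = 0.0018), Hsd11b2, which protects it from glucocorticoids, fell by 4.23 ± 0.43 (adjusted p = 8.8e-05), and Scnn1a, a subunit of the epithelial sodium channel, fell by 3.05 ± 0.34 (adjusted p = 0.00016). The other channel subunits Scnn1b (-2.42) and Scnn1g (-2.61) and the kinase Sgk1 (-1.76) fell too. The secretory cotransporter Slc12a2 was not called (0.55). Among carbonic anhydrases and aquaporins 8 of 19 fell and 2 rose. Aqp4, a water channel, measured 0.72, 0.41 and 2.46 against 3.72, 5.08 and 3.91 (-3.04 ± 0.53, adjusted p = 0.0018), and Car1 was not called (5.33, 4.45 and 4.97 against 3.54, 3.85 and 4.19). The fit with slide as a block did not call Sgk1 (-2.38) and Aqp4 (-1.78). Dropping 1 array cost the following calls: Sgk1 without AOM/DSS replicate 1 or 3 or control replicate 1 or 3 (-1.69 to -1.41). Probes cleared background for Slc9a2 on 1 of the 3 AOM/DSS arrays.

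Brush border genes were called lower in 19 and higher in 1 of 24 (median -2.04). Alpi, intestinal alkaline phosphatase, fell from -1.35, -1.52 and -2.83 to -7.40, -7.25 and -7.23 (-5.39 ± 0.43, at least 8.96-fold, adjusted p = 2.8e-05). The probe shown was above background on no AOM/DSS array, and the other probe of Alpi differed by -0.38 without a call. The paired hormones of the gut lumen separated: Guca2a, guanylin, measured 4.74, 5.05 and 4.13 against 9.48, 8.95 and 8.12 (-4.21 ± 0.46, adjusted p = 0.00013), whereas Guca2b, uroguanylin, was not called (0.07). Colonocytes burn butyrate from bacteria, and genes for its uptake and oxidation were called lower in 22 of 27 and higher in 3. Slc5a8, a butyrate carrier, measured -1.84, -1.20 and -0.44 against 4.02, 4.06 and 3.84 (-5.13 ± 0.34, adjusted p = 1.2e-05), and Acsm3, which activates medium-chain fatty acids, 0.20, -1.26 and -1.67 against 3.19, 4.44 and 4.36 (-4.91 ± 0.48, adjusted p = 7.5e-05). Slc16a1, a monocarboxylate carrier, fell by 2.44, and Slc16a3, the lactate exporter of glycolytic cells, rose by 1.73. The respiratory chain was lower by small steps: 63 of 90 genes were called lower and 3 higher, with a median of -0.90. That median was -0.34 after quantile normalisation, where the median of all genes was 0.10, and -0.27 after normexp, where it was -0.30. By complex, 23 of 37 genes of complex I, all 4 of complex II, all 9 of complex III, 13 of 15 of complex IV and 14 of 17 of ATP synthase were called lower, with medians of -0.75, -0.98, -1.04, -1.17 and -0.92. Exceptions included Ndufa4, which rose by 0.97. Mitochondrial ribosomal proteins had a median of 0.0, with 4 of 78 higher and 6 lower.

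**Figure D3:**
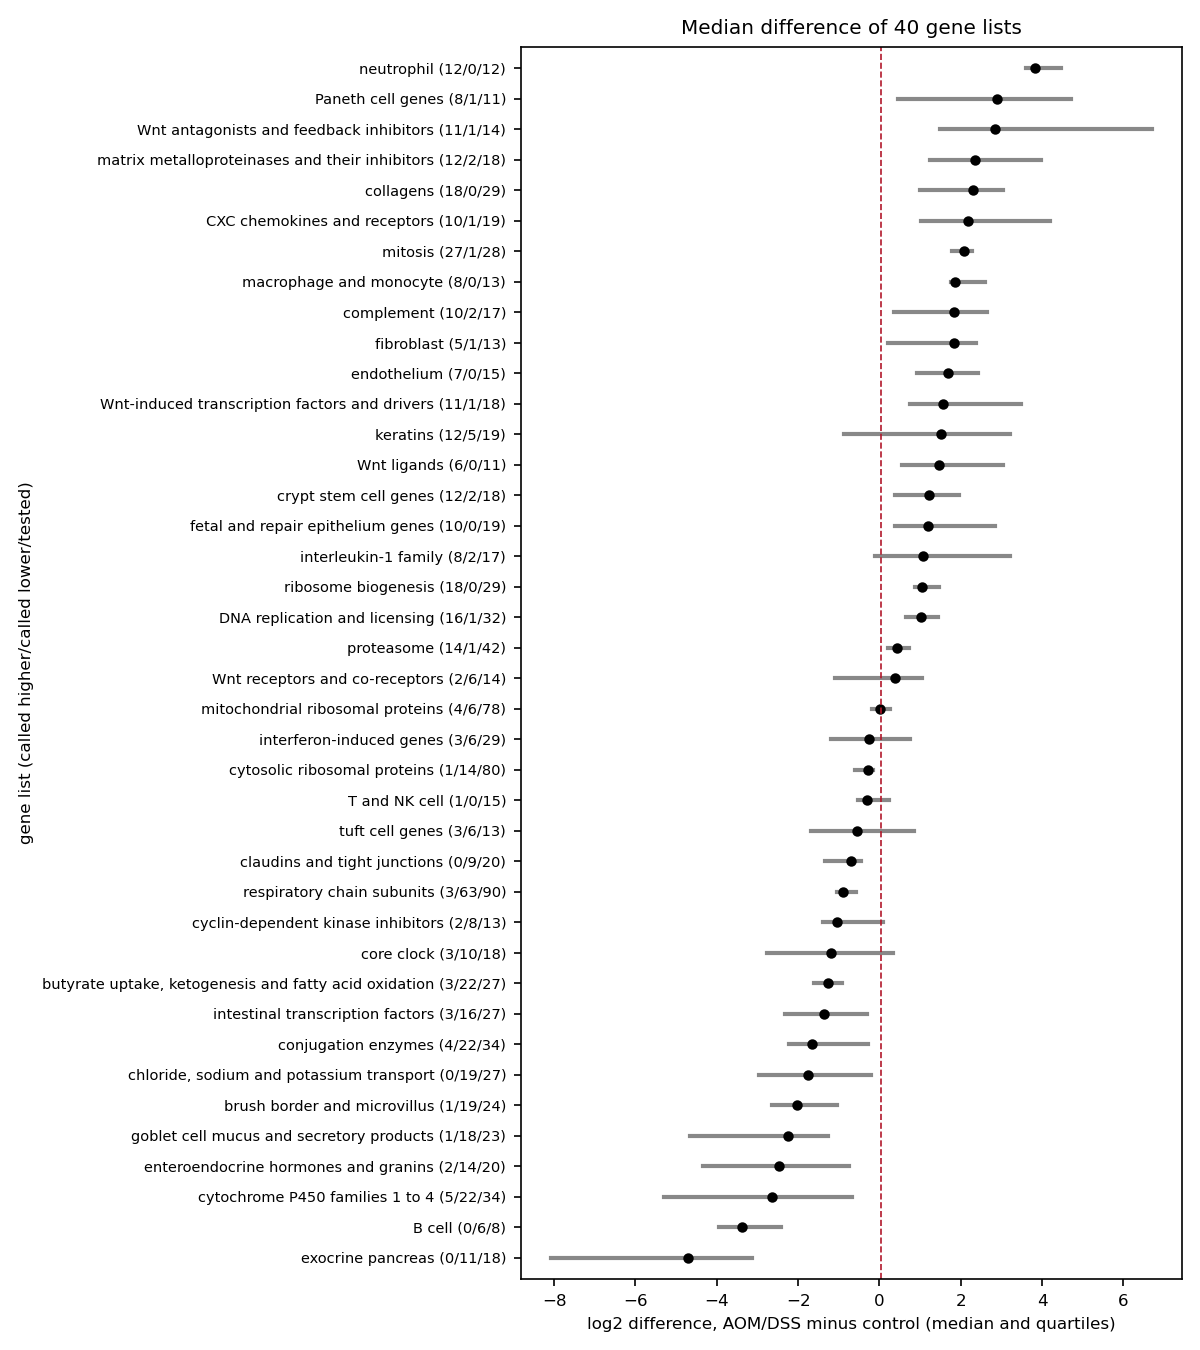
Median log2 difference, AOM/DSS minus control, of the tested members of 40 gene lists (points) with the lower and upper quartile (bars), and the median over all 18679 genes as a dashed line at 0.04. Labels give the calls as higher/lower/tested. Neutrophil, Paneth cell and Wnt inhibitor genes lie at the upper end and exocrine pancreas, B cell and cytochrome P450 genes at the lower end.

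Most goblet and enteroendocrine genes were lower, tuft cell genes were mixed, and goblet cell genes varied among the neoplasms. Of 23 goblet genes 18 were called lower and 1 higher. Clca1, a secreted protease that loosens mucus, measured 6.14, 3.66 and -0.73 on AOM/DSS replicates 1, 2 and 3 against 9.46, 9.37 and 8.89 (-6.21 ± 1.26, adjusted p = 0.004), and Zg16, a lectin that keeps bacteria at a distance, 6.31, 4.71 and 0.52 against 10.23, 10.03 and 9.57 (-6.10 ± 1.09, adjusted p = 0.0021). Replicate 3 was lowest for both, and over the list the neoplasms averaged -0.74, -1.54 and -2.09 against 1.50, 1.73 and 1.13 in the controls. Fcgbp, a mucin-linked protein, fell by 5.14, Tff3, a trefoil peptide of mucus, fell by 3.38, and Atoh1, the factor that commits cells to secretion, fell by 3.09 ± 0.33 (adjusted p = 0.00012). Tff1, the gastric trefoil peptide, rose from -4.82, -4.78 and -5.25 to -3.42, -2.56 and -0.94 (2.64 ± 0.61, at least 3.09-fold, adjusted p = 0.0075). Enteroendocrine genes gave 14 of 20 lower and 2 higher. The exceptions were Nts, neurotensin, at -1.08, -2.17 and -2.32 against -5.94, -6.09 and -6.23 (4.23 ± 0.52, at least 4.22-fold, adjusted p = 0.00026), and the homeobox factor Isl1, which rose by 3.27. Tuft cell genes gave 6 of 13 lower and 3 higher, with a median of -0.56 that became 0.76 over the members above background on all 6 arrays. The taste channel Trpm5 measured -7.37, -7.56 and -7.19 against -1.89, -1.92 and -2.35, at least 8.08-fold lower (-5.32 ± 0.38, adjusted p = 1.8e-05), while Dclk1, often used as a tuft cell marker, was not called (-0.56). Adding slide to the fit removed the call of Isl1 (2.90). The sign turned after normexp correction, without a call, for Tff1 (-0.28). Values lay above background for Isl1 on 1 of the 3 control arrays.

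Intestinal transcription factors were called lower more often than higher. Of 27 tested 16 were called lower and 3 higher. Klf4, which stops division in differentiating cells, measured 4.69, 4.59 and 3.89 against 8.47, 8.11 and 7.57 (-3.66 ± 0.37, adjusted p = 8.8e-05). Cdx2, which sets intestinal identity, measured 1.23, 1.10 and 0.96 against 4.23, 4.50 and 3.83 (-3.09 ± 0.31, adjusted p = 8.6e-05). Vdr, the vitamin D receptor, fell from 5.23, 4.69 and 4.36 to 1.24, 0.99 and 0.57 (-3.83 ± 0.29, adjusted p = 2.3e-05), and Hnf4a, a nuclear receptor of absorptive cells, fell by 2.01 ± 0.26 (adjusted p = 0.00038). In these 4 the highest neoplasm stayed below the lowest control. Isx, a homeobox repressor of vitamin A uptake normally found in the small intestine, rose from -4.32, -5.64 and -5.29 to 1.03, -0.10 and 0.09, at least 19.3-fold higher (5.42 ± 0.57, adjusted p = 0.00011). Onecut2, a factor of foregut and liver, measured -0.84, 0.34 and -0.54 against -5.89, -6.14 and -6.25, at least 12-fold higher (5.74 ± 1.01, adjusted p = 0.0019). Foxa1, an endoderm factor, was not called (0.0). Of the posterior Hox genes, Hoxa13 fell by 2.89 ± 0.50 (adjusted p = 0.0018) and Hoxb13 fell by 1.53 ± 0.26 (adjusted p = 0.0015), within a family where 21 were tested, 5 called lower and 3 higher. Those 23.8% and 14.3% lay near the 17.5% and 17.6% of all genes.

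Most enzymes of drug metabolism were lower. Among cytochromes P450 22 of 34 were called lower and 5 higher. Cyp2c40 fell by 6.22 and Cyp4f14, which hydroxylates leukotriene B4 and fatty acids, from 5.11, 5.69 and 4.53 to -0.20, -0.93 and -2.53 (-6.33 ± 0.53, adjusted p = 3.6e-05). The Cyp2b genes went the other way, Cyp2b10 from -5.27, -6.13 and -5.57 to -0.41, -2.09 and -1.19 (4.43 ± 1.08, at least 6.51-fold, adjusted p = 0.0099), with its close relatives Cyp2b9 (5.23, at least 27.7-fold) and Cyp2b13 (5.54, at least 14.4-fold). Enzymes that conjugate drugs for export gave 22 of 34 lower and 4 higher. Sult1c2, a sulfotransferase, measured -2.32, -4.13 and -5.03 against 1.93, 3.09 and 3.38 (-6.62 ± 0.59, adjusted p = 4.8e-05). ABC transporters were called higher in 6 and lower in 11 of 27: Abcb1a, the drug pump P-glycoprotein, fell by 4.25 ± 0.35 (adjusted p = 3.2e-05) and Abcg2 fell by 3.04, whereas Abcc2, a conjugate exporter of liver and small intestine, rose from -5.72, -3.83 and -6.03 to 0.14, 0.42 and 0.32, at least 18.2-fold higher (5.48 ± 0.70, adjusted p = 0.00031). Retinoid, steroid and bile acid genes gave 14 of 28 lower and 6 higher, with Hsd3b2, an enzyme of steroid synthesis (-5.43), and Adh1, which oxidises retinol (-3.41), lower. With slide as a block, Cyp2b10 (4.46), Cyp2b9 (5.48) and Hsd3b2 (-4.78) missed the threshold. Signal was above background for Hsd3b2 on 1 of the 3 AOM/DSS arrays, and Sult1c2 on 2 of the 3 AOM/DSS arrays.

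Nutrient handling changed gene by gene. Slc2a5, the fructose carrier, measured -5.74, -5.65 and -4.77 against 1.06, 1.07 and 1.16, at least 69.7-fold lower (-6.48 ± 0.39, adjusted p = 6.9e-06). Glycolysis genes as a list gave 5 of 31 higher and 11 lower, the rises including Pfkfb3, an activator of the pathway (2.25), and Ldhb, a lactate dehydrogenase subunit (2.59). Slc15a1, the peptide carrier Pept1, fell from 1.07, 0.61 and 0.47 to -4.95, -4.76 and -5.60 (-5.82 ± 0.29, adjusted p = 4.5e-06). Metal-binding genes rose and fell, 11 and 9 of 27: Mt4, a metallothionein of stratified epithelium, went from -2.71, -2.50 and -3.18 to 3.31, 5.34 and 3.78 (6.94 ± 0.90, adjusted p = 0.00036), Cp, the copper-carrying ceruloplasmin, rose by 4.91, and Hamp2, a hepcidin relative, fell by 3.71. Cholesterol genes had 20 of 27 not called. Sugar-transferring enzymes of mucus and blood group antigens gave 21 of 66 lower and 8 higher. B3gnt7, which extends mucin sugars, fell by 4.92 ± 0.52 (adjusted p = 0.00011) and Gcnt3, which branches them, fell by 4.10 ± 0.55 (adjusted p = 0.00043). Slide as a block ended the call of Ldhb (2.19). Values lay above background for Slc15a1 on 1 of the 3 AOM/DSS arrays.

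Clock genes differed between the groups. The circadian clock is a loop in which Clock and Bmal1, the product of Arntl, drive the Per, Cry and Nr1d genes and the output factors Dbp and Tef, which in turn repress or modulate them. Of 18 clock genes 10 were called lower and 3 higher. Dbp measured 0.88, 1.18 and 0.71 against 5.62, 5.17 and 5.81 (-4.61 ± 0.40, adjusted p = 4.3e-05), Ciart, a repressor of the loop, -6.03, -5.17 and -5.06 against -1.72, -0.98 and -1.35, at least 12.9-fold lower (-4.07 ± 0.51, adjusted p = 0.00028), and Nr1d1 -2.68, -1.69 and -1.87 against 1.89, 0.91 and 0.94 (-3.32 ± 0.34, adjusted p = 9.6e-05). Tef fell by 2.77 ± 0.26 (adjusted p = 6.2e-05), and Per1 (-1.81), Per2 (-1.42), Per3 (-2.71) and Cry2 (-1.47) also fell. The 3 called higher were Arntl, from -0.93, -1.43 and -1.23 to -0.02, -0.23 and -0.42 (0.97 ± 0.32, adjusted p = 0.036), Nfil3, the repressor that competes with Dbp, from -1.36, -1.43 and -1.29 to 0.53, 0.27 and 0.86 (1.91 ± 0.27, adjusted p = 0.00053), and Cry1 by 1.29 ± 0.31, at least 1.29-fold (adjusted p = 0.0094). The hour of tissue collection is not in the labels, so its part in these differences was not tested. The fit with slide as a block did not call Arntl (0.78) and Cry1 (0.90). With 1 array removed, the calls lost were: Per2 without AOM/DSS replicate 3 or control replicate 1, 2 or 3 (-1.49 to -1.0) and Arntl without any 1 of the 6 arrays (0.86 to 1.10). The sign turned after normexp correction, without a call, for Cry1 (-1.20).

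Promoters of the clock genes are shown for the same reason, that output genes fell together. The E-box CACGTG, the site of the Clock and Bmal1 pair, was searched in the 250 bases before the start on both strands, where this palindrome reads alike. It was found in 5 of 19 RefSeq promoters of 14 clock genes, 26.3%, and in 8% of the promoters of all genes tested. The D-box TTATGTAA, the site of Dbp and Nfil3, was found in 1 of 19, 5.26%, and in 0.488% of all. Ciart (chr3:95882229-95882478, minus strand) held 3 E-boxes in this window, and Tef (chr15:81802423-81802672, plus strand) 1 in the promoter printed here, in capitals as before.
Ciart: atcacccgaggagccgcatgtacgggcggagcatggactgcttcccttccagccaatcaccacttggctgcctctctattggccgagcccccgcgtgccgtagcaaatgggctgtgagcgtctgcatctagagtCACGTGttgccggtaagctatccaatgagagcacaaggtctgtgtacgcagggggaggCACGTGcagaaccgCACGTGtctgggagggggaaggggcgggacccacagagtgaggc
Tef: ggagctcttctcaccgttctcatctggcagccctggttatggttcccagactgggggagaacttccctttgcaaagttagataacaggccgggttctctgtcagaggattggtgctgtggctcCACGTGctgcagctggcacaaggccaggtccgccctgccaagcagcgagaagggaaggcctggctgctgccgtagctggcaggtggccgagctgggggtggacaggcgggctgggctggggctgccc
Both genes were called lower, while Cry1, which also had an E-box in its window, was called higher. Promoters of other lists were searched in the same window and are not printed. CTTTGAT, the TCF motif, was found in 0 of 9 promoters of Wnt inhibitors and in 2.34% of all. TTTATGG, the CDX motif, and CAAAGTCCA, the HNF4 motif, were found in 0 of 24 promoters of ion transport genes. In brush border genes they were found in 1 and 2 of 23 promoters, 4.35% and 8.7%, beside 1.78% and 0.414% of all.

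Growth factor genes changed in both directions. In the BMP and TGF-beta pathway 11 of 40 genes were called higher and 8 lower, 27.5% and 20% beside 17.6% and 17.5% of all genes. Inhba, the activin A subunit, measured 1.37, 0.77 and 1.28 against -5.98, -6.15 and -2.20 (5.92 ± 1.0, adjusted p = 0.0015), and Fst, follistatin, which traps activin, 0.37, 0.21 and -0.04 against -4.81, -6.15 and -6.27, at least 17.3-fold higher (5.93 ± 0.85, adjusted p = 0.00062). A ligand and its inhibitor thus both rose. Bmp4 and Bmp7 rose by 2.96 and 3.83 and the decoy receptor Bambi by 2.98, whereas Bmp2 (-2.33) and Bmp3 (-2.89), ligands of differentiated colonocytes, fell, as did Id1, a BMP target (-1.24). EGF receptor ligands divided likewise: Ereg, epiregulin, rose from -5.61, -5.79 and -5.93 to -3.05, -3.96 and -3.64 (2.22 ± 0.36, at least 1.3-fold, adjusted p = 0.0013), Nrg1 by 2.07, at least 3.25-fold (other probe 0.06, not called), Btc by 1.28 and Tgfa by 0.90, while Egf fell by 2.14. Of the receptors Erbb2 fell by 2.11 and Egfr was not called (-0.37). Fibroblast, hepatocyte and insulin-like growth factor genes gave 10 of 34 higher (29.4%) and 7 lower (20.6%). Igfbp1, a binding protein of insulin-like growth factors, measured -0.68, -1.38 and -1.49 against -5.90, -6.14 and -6.24, at least 6.72-fold higher (4.91 ± 0.47, adjusted p = 6.8e-05). Under the slide block the calls lost were Bmp4 (2.92), Id1 (-0.91), Nrg1 (1.48), Btc (1.36) and Tgfa (0.67). Leaving out 1 array ended these calls: Bmp4 without AOM/DSS replicate 1, 2 or 3 or control replicate 1 or 2 (2.27 to 2.98), Id1 without AOM/DSS replicate 1, 2 or 3 or control replicate 1 or 2 (-1.40 to -0.94), Btc without AOM/DSS replicate 1 or control replicate 1 (1.12 to 1.18) and Tgfa without AOM/DSS replicate 1 or 2 (0.83 to 0.86). After normexp correction Ereg (-1.13), Nrg1 (-0.34), Btc (-0.05) and Tgfa (-0.50) had the opposite sign, without a call. Signal was above background for Inhba on 1 of the 3 control arrays, and Bmp4 on 2 of the 3 control arrays.

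Contact-dependent pathways were mixed. Notch genes gave 5 of 22 higher and 2 lower, with the ligand Jag2 higher by 3.36 ± 0.48, at least 5.41-fold (adjusted p = 0.00063), the receptors Notch1 and Notch3 higher by 1.44 and 2.47, and the target Hes1 not called (-0.37). As a share, 22.7% of Notch genes were called higher beside 17.6% of all genes, and 9.09% lower beside 17.5%. Hippo pathway and YAP target genes gave 8 of 17 higher and 2 lower. Ajuba, a scaffold that restrains the Hippo kinases, went from -5.24, -4.74 and -3.91 to -0.19, 0.20 and -0.11, at least 14.4-fold higher (4.60 ± 0.59, adjusted p = 0.00032), and Yap1, the pathway's coactivator, measured 0.91, 1.58 and 0.50 against -0.10, -0.37 and -0.14 (1.20 ± 0.35, adjusted p = 0.022). Guidance molecules of the Eph, ephrin and semaphorin families gave 11 of 41 higher and 11 lower, 26.8% each way beside 17.6% and 17.5% of all genes. Sema3e rose from -5.67, -4.69 and -6.04 to -0.62, -0.46 and -0.29, at least 11.1-fold higher (5.01 ± 0.74, adjusted p = 0.00073), Sema3f by 3.47, and Sema5a fell by 2.41. The sorting receptor of the crypt, Ephb2, was not called (0.32), and its ligand Efnb1 fell by 2.23. Imprinted genes other than Plagl1 that rose included Dlk1, a growth regulator of fetal tissue (3.22), and Cdkn1c (1.87). Their list, which also holds long noncoding RNAs, had 6 of 17 higher and none lower. Adding slide to the fit removed the calls of Notch1 (0.80), Notch3 (2.04), Yap1 (0.70), Sema3f (2.93), Dlk1 (2.12) and Cdkn1c (1.88). Calls that did not survive leaving out 1 array were: Notch3 without AOM/DSS replicate 1, 2 or 3 or control replicate 1 or 2 (1.38 to 2.68) and Yap1 without AOM/DSS replicate 1 or 2 or control replicate 1 or 2 (0.91 to 1.25). The sign turned after normexp correction, without a call, for Notch3 (-0.05). Values lay above background for Notch3, Sema3f and Dlk1 on 2 of the 3 control arrays.

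Most matrix metalloproteinases and their inhibitors, taken as 1 list, rose: 12 of 18 were called higher and 2 lower. For 5 of the 18 no control array was above background. The list's median was 2.36, or 1.68 with genes at background set to their bound and 0.98 after normexp. Of 21 Adam and Adamts proteases 8 were called higher and 1 lower, and 12 were not called. Mmp13, a collagenase, measured 0.40, -0.77 and 1.31 against -5.88, -6.10 and -3.60 (5.50 ± 1.28, adjusted p = 0.0078), and Mmp3, stromelysin, -0.97, -1.42 and 1.36 against -6.05, -6.22 and -1.19 (4.14 ± 1.38, adjusted p = 0.039). The neutrophil protease Mmp8 rose by 3.43, at least 2.62-fold. Another neutrophil protease, Mmp9, rose by 4.44, at least 7.76-fold. Of the inhibitors, Timp1 rose by 3.05 and Timp4 fell by 2.56. Collagen genes were called higher in 18 of 29 and lower in none, with a median of 2.29. Of 13 fibroblast markers 5 were called higher, among them the collagens Col1a1, Col1a2 and Col3a1. Fap was the 1 called lower (-1.92), and 7 were not called. The average of the fibroblast markers ranged from -1.95 to 1.31 over the controls and from 0.40 to 0.98 over the neoplasms. The collagen median was 2.0 with genes at background set to their bound, 2.97 without control replicate 3, 1.71 without control replicate 1 and 0.50 after normexp correction. The part of this stromal difference in the collagen result was not tested. Col9a3, a collagen of cartilage, was low on all 3 controls (-5.93, -6.15 and -6.24) against -1.22, -2.30 and -3.23 (3.85 ± 0.65, at least 3.21-fold, adjusted p = 0.0015). Col17a1, the collagen of epithelial hemidesmosomes, measured -2.44, -1.47 and -1.90 against -5.72, -4.52 and -6.05 (3.49 ± 0.51, at least 3.99-fold, adjusted p = 0.00068). Among laminins, integrins and basement membrane genes 11 of 29 rose and 2 fell, the rises including Lama5 (4.38) and Lama1 (3.77, at least 3.85-fold). Once slide entered the fit, Mmp13 (6.50), Mmp3 (5.85) and Col9a3 (2.87) no longer passed. Among single arrays left out, calls were lost as follows: Mmp3 without AOM/DSS replicate 1, 2 or 3 or control replicate 1 or 2 (3.28 to 4.68). After normexp correction Mmp8 (-0.23), Col9a3 (-0.10) and Col17a1 (-0.07) had the opposite sign, without a call. Probes cleared background for Mmp13 and Mmp3 on 1 of the 3 control arrays.

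Keratins changed in both directions. Of 19 tested 12 were called higher and 5 lower. No control array was above background for 6 of the 19. The keratin median was 1.52, or 0.99 with genes at background set to their bound and -0.005 after normexp. Krt36 and Krt35, hard keratins of hair and nail, went from -4.69, -3.96 and -4.04 to 3.72, 1.99 and 3.58, at least 129-fold higher (7.33 ± 0.94, adjusted p = 0.00032), and from -5.99, -6.19 and -6.28 to -0.94, 1.03 and -0.17, at least 15-fold higher (6.13 ± 0.82, adjusted p = 0.00043). Krt17, a keratin of wounded epidermis, rose by 4.99 ± 0.92 (adjusted p = 0.0024). The keratins of normal colon fell: Krt20 of surface cells from 8.49, 7.85 and 7.10 to 4.09, 4.63 and 4.09 (-3.54 ± 0.36, adjusted p = 9.1e-05), and with it Krt8 (-1.42) and Krt19 (-1.07), while Krt18 was not called (-0.65). Of 5 markers of squamous epithelium tested 3 were called higher and Krt13 was called lower (-1.52), and Krt13 and Krt14 belong to the keratin list as well. The average of the 5 ranged from 0.25 to 0.87 in the neoplasms with all controls below 0, and their part in the keratin result was not tested. The epithelial adhesion molecule Epcam was not called (4.45, 4.82 and 4.63 against 5.59, 4.97 and 4.92, -0.52), and 11 of 15 epithelial markers were called lower and 1 higher. Cdh1, E-cadherin, fell by 1.04 ± 0.25 (adjusted p = 0.0085), Cdh13 rose by 5.48 and Ceacam18 fell by 3.10, within cadherins, desmosomes and adhesion genes of which 8 of 29 were higher and 11 lower. Claudins and tight junction genes gave 9 of 20 lower and none higher. Serpins gave 10 of 27 higher and 7 lower, with Serpinb11 higher by 6.71 and Serpina9 lower (-4.92). With slide as a block, Krt8 (-1.51), Krt19 (-1.16), Krt13 (-0.44) and Cdh1 (-1.22) missed the threshold. Dropping 1 array cost the following calls: Krt13 without AOM/DSS replicate 1 or 2 or control replicate 1, 2 or 3 (-1.61 to -1.18). Signal was above background for Serpinb11 on 1 of the 3 control arrays, and Serpina9 on 2 of the 3 AOM/DSS arrays.

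Neutrophil markers were higher in every neoplasm. Of 15 on the array, 12 passed the filter and were called higher, 6 of them with no control array above background and 1 above it on all 6 arrays. Their median difference was 3.83, or 2.78 with genes at background set to their bound and 0.59 after normexp. Their average was 1.93, 2.05 and 2.75 against -1.98, -2.58 and -2.17. Csf3r, the receptor for granulocyte growth factor, measured -1.58, -1.95 and -1.43 against -5.70, -5.88 and -4.18 (3.60 ± 0.56, at least 4.85-fold, adjusted p = 0.001), and Cxcr2, the receptor for the chemokines that attract neutrophils, -1.23, -2.14 and -1.34 against -5.91, -6.11 and -6.20 (4.50 ± 0.65, at least 5.15-fold, adjusted p = 0.00063). The probe shown for Cxcr2 was above background on no control array, and its other probe differed by 1.03 without a call. Those ligands rose as well: of 19 CXC chemokines and receptors 10 were called higher and 1 lower. For 5 of the 19 no control array was above background. The list's median was 2.18, or 1.77 with genes at background set to their bound and 0.48 after normexp. Cxcl1 went from -5.91, -5.44 and -4.85 to 1.11, -0.07 and 2.11, at least 31.6-fold higher (6.45 ± 0.87, adjusted p = 0.00046). Cxcl10, an interferon-induced attractant of T cells, varied among the neoplasms and was not called (3.76, -0.65 and 2.14 against -0.95, -1.19 and -0.77). CC chemokines gave 6 of 27 higher, led by the monocyte attractants Ccl7 (4.10) and Ccl2 (3.81), and 3 lower, among them Ccl28, the epithelial attractant of plasma cells (-3.76). The 22.2% higher and 11.1% lower stand beside 17.6% and 17.5% of all genes. Macrophage and monocyte markers were called higher in 8 of 13, while T and NK cell markers were called in 1 of 15 and plasma cell markers in none of 9. B cell markers fell in 6 of 8, with Ms4a1, CD20, at -1.51, -4.55 and -1.38 against 2.03, 0.26 and 3.0 (-4.24 ± 1.17, adjusted p = 0.018). Slide as a block ended the call of Ms4a1 (-3.14). With 1 array removed, the calls lost were: Ms4a1 without AOM/DSS replicate 2 or control replicate 1 or 3 (-4.11 to -3.20). Values lay above background for Ccl7 on 2 of the 3 control arrays.

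Several cytokines of injury rose, and few interferon-induced genes were called higher. Il1rl1, the interleukin-33 receptor, measured 1.32, -0.29 and 2.01 against -6.08, -3.58 and -3.90 (5.54 ± 1.13, adjusted p = 0.004) and its ligand Il33 1.09, -0.72 and 1.25 against -3.98, -4.02 and -1.28 (3.64 ± 0.86, adjusted p = 0.0084), in an interleukin-1 family with 8 of 17 higher and 2 lower. For 4 of those 17 no control array was above background. The family's median was 1.07, or 0.49 with genes at background set to their bound and -0.14 after normexp. Il18, which is made by normal colonocytes, fell by 1.24 ± 0.25 (adjusted p = 0.0041). Il11, a cytokine of the interleukin-6 family, went from -3.67, -4.20 and -3.09 to 0.26, -1.39 and 0.94 (3.59 ± 0.81, adjusted p = 0.0067), Socs3, the feedback inhibitor of that pathway, rose by 2.29 ± 0.54 (adjusted p = 0.0081) and Stat3, its transcription factor, was not called (-0.02). Il17c, an epithelial cytokine, rose by 2.17 ± 0.44, at least 1.03-fold (adjusted p = 0.0038), Il23a, which sustains interleukin-17 cells, by 4.15 ± 0.79, at least 4.91-fold (adjusted p = 0.0029), and Foxp3, the factor of regulatory T cells, by 1.74 ± 0.60, at least 1.04-fold (adjusted p = 0.043). Tnf measured 1.34, 1.55 and 1.51 against -1.29, -2.83 and -2.09 (3.54 ± 0.37, adjusted p = 0.0001), whereas Rela and Nfkbia, the NF-kB subunit and its inhibitor, were not called (0.17 and -0.06). Interferon-induced genes gave 3 of 29 higher and 6 lower, and MHC class II genes none higher and 2 of 10 lower. The shares called lower, 20.7% and 20%, lay near the 17.5% of all genes. The 10.3% of interferon-induced genes called higher stand beside 17.6%. Complement genes were called higher in 10 of 17 and lower in 2. Their average was 0.65, 0.48 and 1.07 on the AOM/DSS arrays against -0.86, -1.72 and 0.40 on the controls, and that of macrophage markers 0.70, 0.77 and 1.45 against -1.07, -2.23 and 0.37, with control replicate 3 highest among the controls in both. The part of macrophages in the complement result was not tested. Cfi, which cleaves C3b, went from -5.97, -6.18 and -4.03 to 1.60, 0.93 and 1.93, at least 42.3-fold higher (6.88 ± 0.91, adjusted p = 0.00041). The fit with slide as a block did not call Il33 (4.35), Il18 (-1.03) and Il23a (3.52). Leaving out 1 array ended these calls: Foxp3 without any 1 of the 6 arrays (1.39 to 1.98). The sign turned after normexp correction, without a call, for Il17c (-1.01) and Foxp3 (-1.36). Probes cleared background for Il33 and Il11 on 1 of the 3 control arrays, and Il1rl1 on 2 of the 3 control arrays.

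Antimicrobial proteins secreted by epithelium changed in both directions. Of 26 tested 9 were called higher and 12 lower. Reg3g and Reg3b, lectins against gut bacteria, measured 2.94, 5.14 and 6.74 against -3.56, -0.73 and -1.51 (6.87 ± 1.22, adjusted p = 0.002) and 0.55, 4.70 and 5.99 against -0.80, -0.21 and -0.07 (4.11 ± 1.38, adjusted p = 0.04), with AOM/DSS replicate 1 lowest in both. Ltf, lactoferrin, rose by 3.80 ± 1.09 (adjusted p = 0.02). Ltf, S100a8 and S100a9 of this list are also neutrophil markers, all 12 of which were called higher, and the part of neutrophils in their rise was not tested. In the other direction, Defb1, the constitutive beta-defensin, fell by 4.36 ± 0.76, at least 10.4-fold (adjusted p = 0.0018). Pigr, which carries IgA into the lumen, fell from 6.66, 6.70 and 6.08 to 4.37, 4.61 and 4.95 (-1.84 ± 0.35, adjusted p = 0.0028). Genes of lipid mediators also went both ways: Alox12, an arachidonate lipoxygenase, rose from -5.80, -5.32 and -3.59 to 1.84, 2.31 and 2.79 (7.22 ± 1.13, adjusted p = 0.001), Alox15 from -5.76, -5.93 and -4.66 to 0.59, -1.37 and -0.26, at least 12-fold higher (5.10 ± 0.59, adjusted p = 0.00019), and Ptgs2, the inducible prostaglandin synthase, by 2.99 ± 0.88 (adjusted p = 0.023). Of the genes that remove prostaglandins, the importer Slco2a1 fell by 4.35 ± 0.39 (adjusted p = 5.2e-05) and the dehydrogenase Hpgd fell by 4.22 ± 0.54 (adjusted p = 0.00031). In that list 9 of 25 were higher and 6 lower. Oxidant genes gave 6 of 26 higher and 2 lower, including Nos2, the inducible nitric oxide synthase (1.76), Gpx2, the glutathione peroxidase of gut epithelium (2.19), and Hmox1, which degrades haem (2.88). Their 23.1% higher and 7.69% lower stand beside 17.6% and 17.5% of all genes. Under the slide block the calls lost were Reg3b (6.35), Ltf (4.55), Pigr (-1.53), Ptgs2 (3.80), Nos2 (1.82) and Hmox1 (3.35). Calls that did not survive leaving out 1 array were: Reg3b without AOM/DSS replicate 2 or 3 or control replicate 1, 2 or 3 (2.99 to 4.25), Ltf without AOM/DSS replicate 2 or 3 or control replicate 2 or 3 (2.76 to 3.79) and Ptgs2 without AOM/DSS replicate 1 or 3 or control replicate 1 or 2 (2.53 to 3.05). Signal was above background for Alox12 and Ptgs2 on 1 of the 3 control arrays, and Ltf and Nos2 on 2 of the 3 control arrays.

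**Figure D4:**
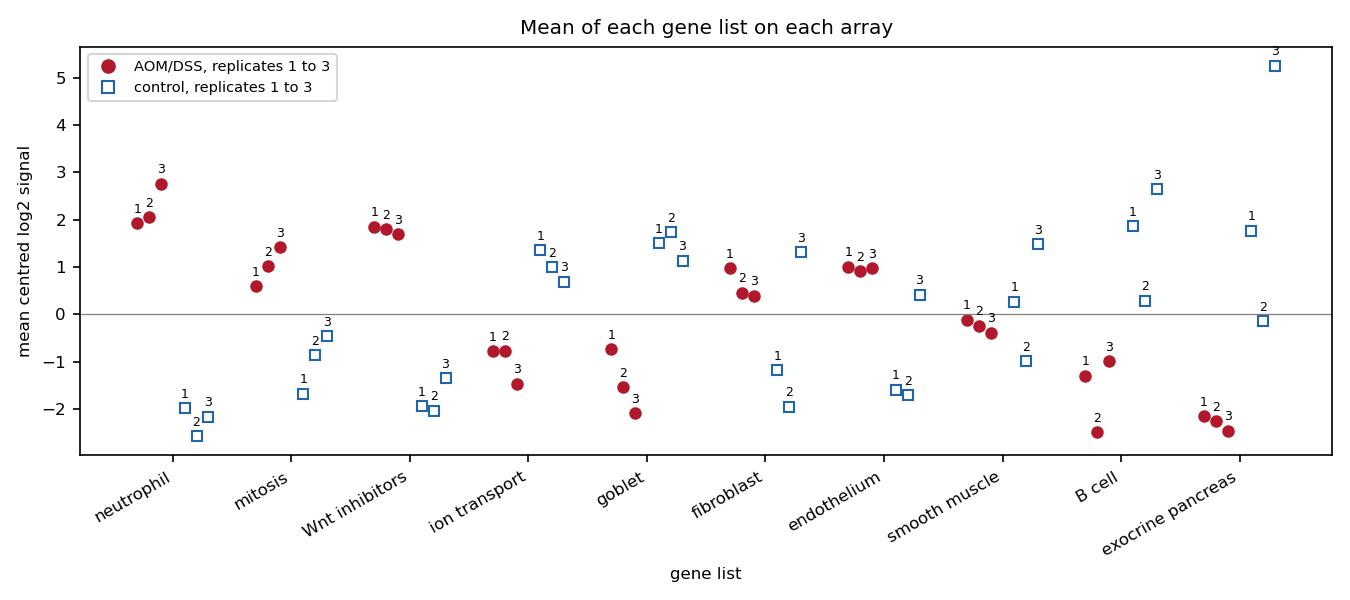
Mean log2 signal of 10 gene lists on each AOM/DSS array (filled circles) and control array (open squares), after centring each gene on its mean over the 6 arrays. The neutrophil, mitosis, Wnt inhibitor, ion transport and goblet lists separate the groups without overlap, and the fibroblast, endothelium and smooth muscle lists show control replicate 3 above control replicates 1 and 2.

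Some genes differed widely among the 3 neoplasm arrays, and those named here were chosen after their values were seen. Among named genes above background on all 3 AOM/DSS arrays, Gdpd3, a lysophospholipase, had the largest SD among them, at 2.95, -2.97 and -4.70 against 3.61, 3.26 and 2.96 in the controls. Replicate 1 kept a level near the controls and replicates 2 and 3 did not. Myl1, a muscle myosin light chain, was high in replicate 3 alone (-3.71, -3.30 and 3.12), and Csrnp1, a nuclear protein, low there alone (-0.29, -0.65 and -7.17). Sprr2d, a cornified envelope protein, was lowest in replicate 1 (-3.13, 0.40 and 1.77 on replicates 1, 2 and 3), and Lrg1, a leucine-rich glycoprotein of acute inflammation, was likewise lowest in replicate 1 (1.64, 4.95 and 5.80 against -1.93, -2.78 and -0.14). These spreads of single genes have no test.

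Levels of these genes in mice given AOM or DSS alone place the comparison in the series. The AOM/DSS arrays enter each of these contrasts, so the contrasts are not independent. Of 55 panel genes tested, 26 were called higher and 23 lower against control, 6 higher and 18 lower against AOM, and 21 higher and 23 lower against DSS. Over all genes tested, 19.8% were called higher and 17.2% lower against AOM, and 17.9% higher and 17.8% lower against DSS. Mmp7 averaged 6.31 ± 0.90 (SD, n = 3) in AOM/DSS, 1.63 ± 1.85 in AOM, -3.64 ± 0.84 in DSS and -5.41 ± 0.72 in control. Dkk2, a Dickkopf family regulator of Wnt signalling, measured 1.85 ± 0.09, -1.91 ± 2.99, -6.37 ± 0.27 and -6.19 ± 0.15 in the same 4 groups. For both genes AOM replicate 1 lay well below the other AOM arrays. For Ereg the AOM (-6.13 ± 0.25), DSS (-5.52 ± 0.76) and control (-5.78 ± 0.16) means lay together below AOM/DSS (-3.55 ± 0.46), and for Retnlb, a goblet cell product, AOM (7.28 ± 0.55), DSS (6.87 ± 1.16) and control (7.20 ± 0.65) lay together above it (-1.22 ± 2.28). Cdk1 averaged 0.48 ± 0.37 in AOM and 0.68 ± 0.37 in AOM/DSS (limma adjusted p = 0.73 for their difference), and Myc 2.38 ± 0.33 and 2.34 ± 0.33 (adjusted p = 0.94), which does not show that the levels were alike.

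**Figure D5:**
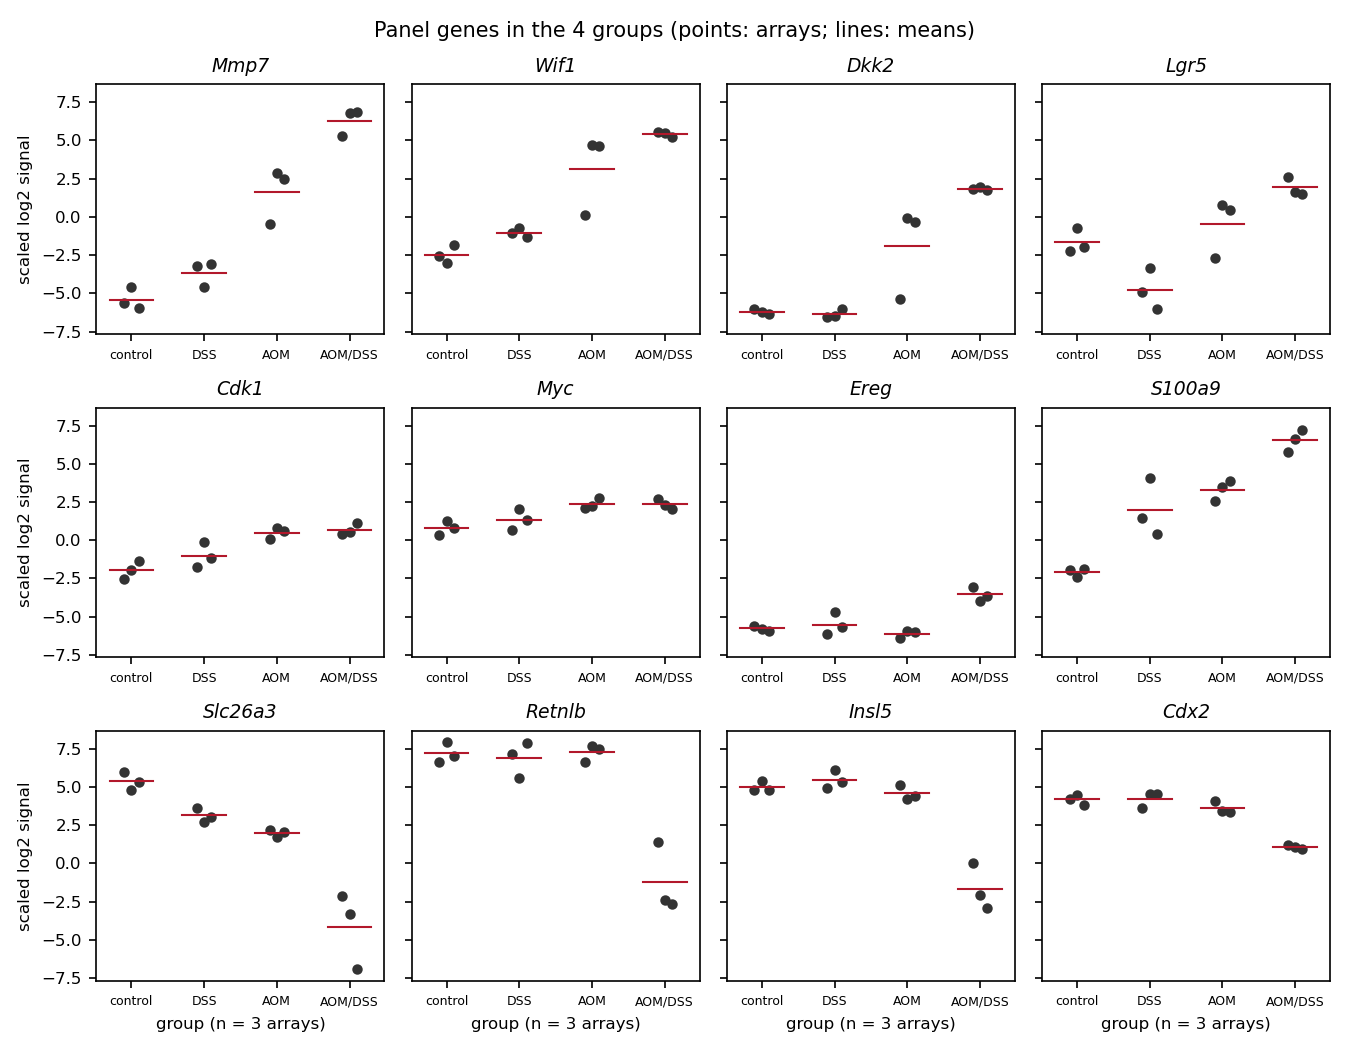
Scaled log2 signal of 12 panel genes on every array of the 4 groups (points; n = 3 arrays each), with horizontal lines at group means. Mmp7 lies highest in AOM/DSS and next in AOM, Retnlb lies low in AOM/DSS alone, and the Cdk1 points of AOM/DSS and AOM overlap.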

How the data were processed

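The members and gene lists were chosen with earlier results of these data known, and the lists come from general knowledge. Per the file headers, the authors scanned 1-colour arrays with Agilent Feature Extraction 10.7.3.1, whose deposited processed intensity is corrected for local background. These intensities were converted here to log2, control spots and flagged spots were left out, and each array was scaled to the 75th percentile of its 41174 gene probes. The authors also deposited a value table in log2 units, which matched these intensities (r = 0.995 to 1.00 per array) and has the same sorted values on every array, as after quantile normalisation; it was used as an alternative. Per the labels' protocols, RNA was labelled with the Low Input Quick Amp kit. Gene names come from the file headers and columns and from RefSeq tables.

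Probes well above background on all 3 AOM/DSS or all 3 control arrays were kept, and the brightest probe stood for its gene. Linear models were fitted with limma 3.58.1 in R 4.3.3 to all 12 arrays in 4 groups, with 8 residual degrees of freedom, and the Benjamini-Hochberg method adjusted p over 18679 genes. An exact permutation test of 3 against 3 arrays cannot go below 0.10. Simulated arrays took each gene's residual spread from the fit of all 12 arrays, with 50 of 18679 genes shifted at each size. Recovered were 16 of 50 genes shifted by 1 log2 unit, 35 of 50 shifted by 2, 47 of 50 shifted by 4 and 50 of 50 shifted by 8. Of the genes not shifted 5 were called. In the data 6557 genes were called, which loosens the adjusted threshold, so these rates need not hold there. The number of arrays limits the precision. Values for single genes are given as log2 differences ± SE. Flagged spots left 55 genes with a missing value on at least 1 of the 12 arrays, none of them described in the text. Named were the 20 largest rises and 20 largest falls, up to 5 called members per list and direction and up to 3 members not called, and a panel of 57 genes; not every gene so chosen is printed. Alternatives covered background correction, scaling, the value table, the filter, probe averaging, slide and replicate blocks, the arrays fitted and each array left out. Some genes of the lists are not reported here by name.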

Additional observations from a re-analysis of the deposited data

How the results depend on the processing

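The number of called genes stayed within a factor of 1.5 of 6557 under median scaling (5793), the percentile over detected probes (6960), quantile normalisation (6988), the authors' table (6996), probe averaging (6503), the stricter filter (5195) and a fit of the 6 arrays alone (6367). It was 2690 after normexp correction, 13819 of 32168 genes with no filter on dim probes and 2237 with slide as a block, and it ranged from 4316 (without control replicate 1) to 6965 (without control replicate 3) when 1 array was left out. The normexp setting adds an offset of 50 intensity units before scaling, on control arrays whose percentile lay at 394 to 677 against 1115 to 1185, and dim genes lose more of their difference there by construction. The slide block rests on AOM/DSS replicate 3, so fewer samples carry it. Same-numbered replicates of the 2 groups correlated in their deviations from the group means at 0.0377, 0.135 and 0.246, so the numbers were not taken as pairs, and with the replicate block 6175 genes were called. Of the 238 genes named, 64 lost their call with slide as a block, 55 lost it in the same direction after normexp, and 6 lost it with the replicate block. Those whose sign turned did so after normexp alone: Apcdd1 (-0.31), Btc (-0.05), Cdkn2a (-0.22), Col17a1 (-0.07), Col9a3 (-0.10), Cry1 (-1.20), Ereg (-1.13), Foxp3 (-1.36), Il17c (-1.01), Kremen2 (-0.01), Mmp8 (-0.23), Notch3 (-0.05), Nrg1 (-0.34), Tff1 (-0.28), Tgfa (-0.50), Wnt5a (-1.38). Gene list medians that changed sign by more than the replicate spread were, after normexp, Wnt ligands (-1.14), Wnt receptors and co-receptors (-0.44), cytosolic ribosomal proteins (0.36), Hox genes (-0.90), fibroblast and hepatocyte and insulin-like growth factors (-0.51), Eph receptors and ephrins and semaphorins (-0.63), serpins (-0.81), regulatory T cell and interleukin-17 axis (-0.99), apoptosis and gasdermins (0.12), Hedgehog pathway (-0.96); after quantile normalisation, cytosolic ribosomal proteins (0.43), glycolysis and glucose transport (0.18); in the authors' table, cytosolic ribosomal proteins (0.44), glycolysis and glucose transport (0.19); over genes above background on all 6 arrays, tuft cell genes (0.76), Hox genes (-0.40), Eph receptors and ephrins and semaphorins (-0.28), regulatory T cell and interleukin-17 axis (-1.0); and Hox genes also without AOM/DSS replicate 2 (-0.21) and without control replicate 2 (-0.15), within a range of -0.21 to 0.25 over the arrays left out. The cause of the list changes was not tested. Signal over background limits the lower group: 731 genes called higher had no probe above background on any control array, and 73 called lower had none on any AOM/DSS array.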
